A study of Mus musculus with 15 samples.

Results

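The nuclear-encoded subunits of oxidative phosphorylation were followed in mouse dental mesenchymal cells (mDMCs) as they were taken from the embryonic molar into culture. Members were the transcripts of the expression table whose gene symbol begins with Ndufa, Ndufb, Ndufc, Ndufs or Ndufv, with Uqcr, with Cox followed by a digit from 4 to 8, or with Atp5, or is Sdha, Sdhb, Sdhc, Sdhd, Cyc1 or Cycs. This symbol pattern took 88 of the 12089 transcripts, each from a gene of its own. By the complex to which the protein belongs, 36 members fell in complex I, 4 in complex II, 9 in complex III, 14 in complex IV and 16 in complex V. Cytochrome c (Cycs) made a class of its own. The pattern also took 8 genes named Ndufaf, which encode factors that help to assemble complex I and are not subunits of it. The remaining 80 members were subunits and cytochrome c. The 7 further protein-coding genes of this pattern, Atp5s, Cox6a2, Cox7a1, Cox7b2, Cox8b, Cox8c and Ndufa4l2, and the 13 subunits encoded by mitochondrial DNA were not analysed here.

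Oxidative phosphorylation takes place in the inner mitochondrial membrane. Complex I (NADH dehydrogenase) and complex II (succinate dehydrogenase, also an enzyme of the citric acid cycle) pass electrons to ubiquinone, complex III (the cytochrome bc1 complex) passes them to cytochrome c, and complex IV (cytochrome c oxidase) passes them to oxygen. Complexes I, III and IV pump protons, and complex V (ATP synthase) uses the return of those protons to make ATP.

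The cells came from the first lower molar of ICR mouse embryos, whose dental mesenchyme was cut free and dissociated with trypsin. Freshly isolated mDMCs (0 h, 3 libraries) were set against mDMCs grown in serum-supplemented medium for 12 h (2 libraries), 24 h (3), 36 h (3) and 48 h (3), and against intact dental mesenchymal tissue (1 library, no replicate). All groups were of the ICR strain, and the labels name no agent other than the culture itself. The labels do not say which libraries came from separate litters or cultures, so the p-values measure only the spread between these libraries, which may be technical.

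The values were expression scores, whole numbers that had been brought to a shared distribution in all libraries, with 721 as the median and 127101 as the highest value. The number of reads behind a score is unknown. Changes are given as log2 of (score + 1), with the standard error of the limma fit, and a member was called higher or lower where the Benjamini-Hochberg adjusted p over the 12079 transcripts tested was under 0.05. All 88 members passed the filter on low scores.

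Stretches of DNA upstream of 4 members that rose in culture are shown because they hold the letters bound by NRF1, a transcription factor known for its sites in promoters of respiratory chain genes. Capitals mark the longer form of these letters (GCGCA, any base, GCGC) or the shorter form GCATGCGC, searched on both strands. The stretches are each 200 bases long and end at the base before the RefSeq gene start, in GRCm38.p6.
Cycs upstream of the start, chr6:50566570-50566769, minus strand: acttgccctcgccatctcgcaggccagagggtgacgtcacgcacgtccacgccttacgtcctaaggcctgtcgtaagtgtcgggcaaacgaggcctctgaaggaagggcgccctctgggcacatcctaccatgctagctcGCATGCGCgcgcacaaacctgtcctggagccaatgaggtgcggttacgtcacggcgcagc
Ndufaf4 upstream of the start, chr4:24897883-24898082, plus strand: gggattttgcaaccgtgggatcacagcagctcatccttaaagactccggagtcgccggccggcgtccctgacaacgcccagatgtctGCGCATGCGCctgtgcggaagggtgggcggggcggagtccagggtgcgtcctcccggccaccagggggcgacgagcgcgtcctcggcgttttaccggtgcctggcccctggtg
Cox6a1 upstream of the start, chr5:115348959-115349158, minus strand: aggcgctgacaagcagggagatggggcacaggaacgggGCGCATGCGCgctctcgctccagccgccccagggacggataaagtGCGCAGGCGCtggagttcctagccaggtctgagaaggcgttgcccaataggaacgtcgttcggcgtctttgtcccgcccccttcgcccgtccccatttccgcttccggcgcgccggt
Sdhd upstream of the start, chr9:50603850-50604049, minus strand: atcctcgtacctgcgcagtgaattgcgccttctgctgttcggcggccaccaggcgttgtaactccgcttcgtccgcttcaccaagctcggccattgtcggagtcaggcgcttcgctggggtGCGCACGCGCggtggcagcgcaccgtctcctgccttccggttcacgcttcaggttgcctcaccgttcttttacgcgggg
The Cycs stretch holds the shorter form, Sdhd holds the longer form, and Ndufaf4 and Cox6a1 each hold both forms in overlap. Cox6a1 holds the longer form at a further place.

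A window of 250 bases before to 50 after a RefSeq start, lying within 100 bases of the start of the transcript in the table, was found for 57 of 88 members and for 7190 of 11960 genes of the table. The longer NRF1 form was in 26.3% of these member windows and in 11.8% of the windows of all genes. The shorter form was in 22.8% against 6.01%. The 2 forms overlap, and at least 1 of them was in 19 member windows (33.3%) against 14.8% of all. The ETS letters CCGGAAGT were in 5.26% of member windows against 9.33%, the YY1 letters AAGATGGCG in 7.02% against 3.73%, and the Sp1 letters GGGGCGGGG in 14% against 24%. A match of letters describes the sequence and does not show binding.

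Several properties of the libraries touched the members. The 0 h library of replicate 3 had the lowest score of its group for 75 of 88 members (85.2%), where it was the lowest for 44% of all transcripts. The 12 h library of replicate 1 was the lower of its pair for 92% of members (58.4% of all), and the 48 h library of replicate 1 was the lowest of its group for 83% (38.3% of all). Members were short, with a median of 821 nt against 2885 nt for all matched transcripts. Among all transcripts of at most 821 nt, these 3 libraries were lowest for 55%, 70.4% and 48%. The members thus moved together between libraries of the same time point, and some counts are given below without single libraries. The highest members were also tied, because the scale allows few values there. Atp5b took only 4 values in the 15 libraries and Atp5a1 took 9, and these steps may understate or overstate their spread.

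The summed scores of red cell, endothelial and macrophage markers were lower in all cultured libraries than before culture. The summed score of 6 of 7 red cell markers was 85776 to 135242 before culture, 309 to 414 after 12 h and 44 to 162 after 48 h, with Slc4a1 at 0 in all cultured libraries and Hbb-bt at 0 in 1 of them. All 5 endothelial markers fell at each time, and their sum was 6827 to 8013 at 0 h and 486 to 851 at 48 h, with Cdh5 at 0 in 1 library of 36 h. The epithelial markers (7 of 8) summed to 13358, 1450 and 1771 before culture, to 2289 to 2683 after 12 h, above 2 of the 3 libraries of 0 h, to 1004 to 2097 after 24 h, and to 357 to 1205 after 48 h, with Krt5 at 0 in 1 library of 36 h. The macrophage markers (3 of 5) summed to 733 to 917 at 0 h and to 287 to 325 at 48 h, and the skeletal muscle markers (5 of 7) to 318 to 1095 and to 903 to 2002, with no marker of either list at 0. The dental mesenchyme markers, all 7 of which were present, summed to 22790 to 27881 before culture and to 11725 to 16040 after 48 h. The part of these cell types in the results below was not tested, and fewer cells of a type and less RNA per cell cannot be told apart.

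After 12 h of culture 9 members were called higher and 22 lower than in freshly isolated mDMCs, where 29.9% and 28.3% of all transcripts tested were called higher and lower. The share of members called lower there, 25%, was near that of all transcripts, and the share called higher was below it. Without 12 h replicate 1, 14 members were lower at that time, and their median change was 0.05 in place of -0.08. At 24 h 24 members were higher and 11 lower (35% and 31.8% of all), and at 36 h 27 were higher and 8 lower (36% and 34% of all). At 48 h 36 members were higher and 5 lower (37.1% and 34% of all). The share of members called higher at 48 h, 40.9%, was near that of all transcripts, and the share called lower, 5.68%, was far below it. With 1 library left out at a time, from 25 to 47 members were higher at 48 h and from 3 to 6 lower. In the order of time, the median change of the members was -0.08, 0.08, 0.02 and 0.20, beside 0.02, 0.03, 0.02 and 0.03 over all transcripts tested and -0.03, 0.05, -0.02 and 0.07 over those of at most 821 nt. Leaving out 1 library at a time, the median of the members ran from -0.22 to 0.05 for 12 h, from -0.02 to 0.14 for 24 h, from -0.06 to 0.07 for 36 h and from 0.12 to 0.30 for 48 h, so that only the last kept its sign. All 4 contrasts share the 0 h libraries. At an unadjusted p under 0.05, 12 members were higher and 24 lower at 12 h (32% and 30.2% of all), and 37 were higher and 6 lower at 48 h (38.1% and 35.1% of all). Without 0 h replicate 3, 15 members were higher and 17 lower at 36 h, and the median at 48 h was 0.12. Without 0 h replicate 1 or 2, or without 36 h replicate 2 or 3, 5 members were lower at 36 h, and without 48 h replicate 1, 3 were lower at 48 h. Without 0 h replicate 3, or without 12 h replicate 2, 5 members were higher at 12 h.

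The changes were small beside those of other transcripts. At 48 h 15 members (17.0%) differed from 0 h by more than 1.5-fold, against 52.5% of all transcripts tested. The median size of the change, whatever its direction, was 0.26 on the log2 scale for members and 0.63 for all, while the replicate SD was alike (0.164 and 0.171). Any difference among the 5 time points was called for 46 members (52.3%) and for 80% of all transcripts. With an unadjusted p under 0.05 and a fold change above 2, 3 members were higher and 1 was lower at 48 h (16.2% and 15.9% of all). By this rule 2 were higher and 4 lower at 12 h (12.2% and 12.1% of all), 3 and 1 at 24 h (13.8% and 14.2%), and 2 and 1 at 36 h (15.6% of all in either direction). Between neighbouring times, 1 was higher from 12 h to 24 h (1.8% of all higher, 1.89% lower), 2 were higher and 1 lower from 24 h to 36 h (2.41% and 1.76%), and 1 was higher from 36 h to 48 h (0.397% higher, 0.96% lower).

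**Figure D1:**
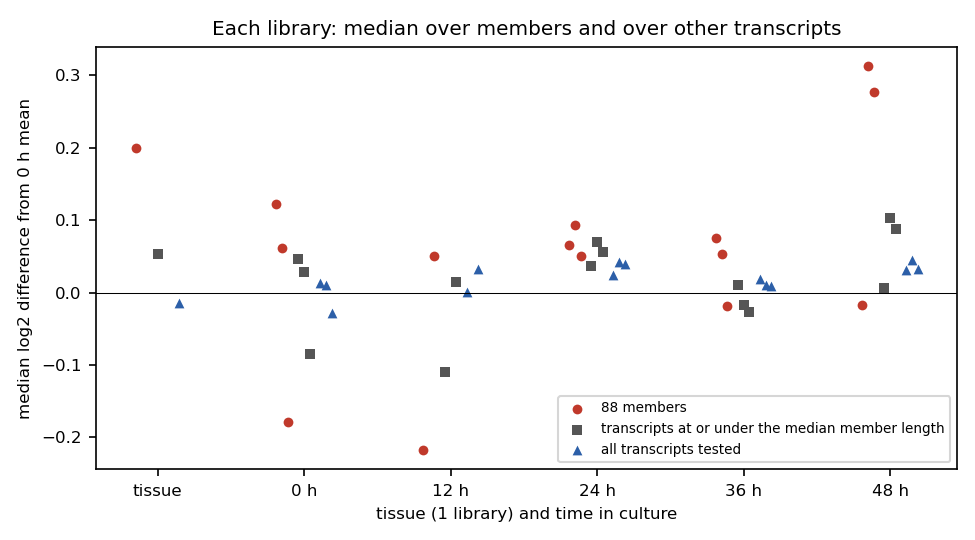
Median log2 difference from the 0 h mean in each library, over the 88 members (red circles), over transcripts of at most 821 nt (grey squares) and over all transcripts tested (blue triangles), for the tissue and each time in culture. The member median ranged from -0.18 to 0.12 within the 0 h libraries and from -0.02 to 0.31 within the 48 h libraries, while the median of all transcripts stayed near 0.

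By complex, the medians at 48 h were 0.21 for complex I, 0.10 for complex II, 0.10 for complex III, 0.37 for complex IV and -0.01 for complex V. The assembly factors had a median of 0.44, and Cycs itself was at 0.59. Each of these medians was lower in 48 h replicate 1 than in the other libraries of that time. It was 0.05 against 0.35 and 0.30 for complex I, -0.01 against 0.22 and 0.16 for complex II, and -0.12 against 0.29 and 0.25 for complex III. It was 0.09 against 0.56 and 0.44 for complex IV, -0.30 against 0.13 and 0.14 for complex V, and 0.36 against 0.41 and 0.46 for the assembly factors. Cycs was at 0.37 in that library and at 0.70 in both others. Differences between classes were not tested. Of the 88 members, 7 were higher at all 4 times (Cox5a, Cyc1, Cycs, Ndufaf4, Ndufaf8, Ndufs4 and Uqcrq), as were 23% of all transcripts tested. At all 4 times 4 members were lower (Atp5a1, Atp5e, Ndufa6 and Ndufv3), as were 21% of all. A further 26 members, or 29.5%, were not called at 12 h and higher at 48 h, as were 11.4% of all, and 29, or 33%, were called at none of the times, as were 14.1% of all.

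**Figure D2:**
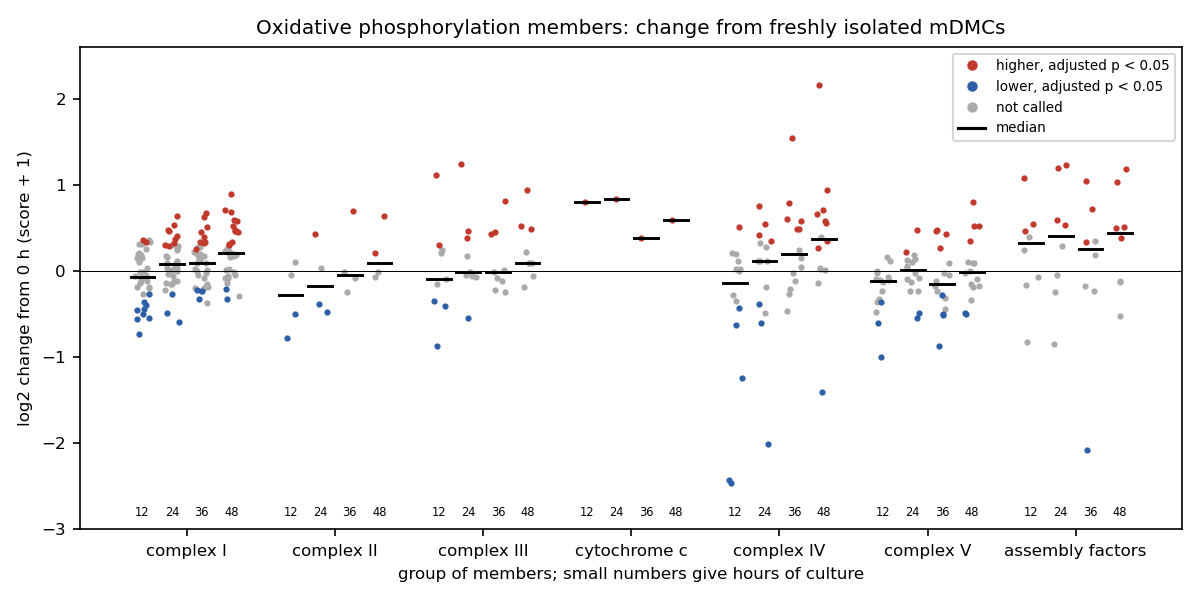
Change from freshly isolated mDMCs in log2 (score + 1) for each member (points) at 12, 24, 36 and 48 h, by complex, with the median of the class as a bar. Red points were called higher and blue points lower. At 48 h the complex IV median was 0.37 and the complex V median -0.01, and Cox6b2 and Cox4i2 lay farthest from 0, at 2.16 and -1.41.

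Complex I, which takes electrons from NADH, had 2 of 36 members higher and 9 lower at 12 h, and 13 higher and 2 lower at 48 h. The shares of 25% lower at 12 h and 36.1% higher at 48 h were near those of all transcripts, 28.3% and 37.1%. The shares of 5.56% higher at 12 h and 5.56% lower at 48 h were below the 29.9% and 34% of all. Of its 7 core subunits, which carry the flavin, the iron-sulphur clusters or the quinone site, 2 were higher at 48 h (Ndufs1 and Ndufs7). Of the 29 accessory subunits 11 were higher and 2 lower at 48 h. Ndufb6, an accessory subunit of the membrane arm, scored 1093, 1050 and 878 before culture, 1111 and 1387 after 12 h, 1491, 1450 and 1397 after 24 h, 1685, 1717 and 1403 after 36 h, and 1571, 2018 and 2053 after 48 h. Every cultured library lay above the 0 h libraries, and the change at 48 h was 0.90 (SE 0.13, adjusted p = 3.85e-05). The tissue scored 1141. Ndufab1, the mitochondrial acyl carrier protein, scored 880, 728 and 653 before culture, 825 and 1048 after 12 h, 1167, 1150 and 1179 after 24 h, 1212, 1127 and 1136 after 36 h, and 1004, 1421 and 1274 after 48 h. It overlapped with 0 h only at 12 h, and its change at 48 h was 0.71 (SE 0.14, adjusted p = 0.000477). Ndufa9, at the junction of the membrane and matrix arms, scored 2485, 2455 and 1852 before culture and 3290, 3762 and 3817 after 48 h, a change of 0.69 (SE 0.12, adjusted p = 0.000197), with the groups apart.

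The 2 complex I members that stayed low at 48 h were accessory subunits of the matrix arm. Ndufv3, in the NADH-binding part, scored 769, 844 and 722 before culture, 440 and 492 after 12 h, 558, 497 and 490 after 24 h, 714, 627 and 648 after 36 h, and 589, 622 and 641 after 48 h. All cultured libraries were below all 0 h libraries, by a change of -0.74 at 12 h (SE 0.10, adjusted p = 6.26e-05) and -0.33 at 48 h (SE 0.09, adjusted p = 0.00651). Ndufa6, which binds the acyl carrier protein Ndufab1, scored 1187, 1166 and 1099 before culture, 712 and 857 after 12 h, 842, 832 and 786 after 24 h, 893, 937 and 921 after 36 h, and 913, 1023 and 1044 after 48 h. It too was below 0 h in all cultured libraries, by -0.56 at 12 h (SE 0.10, adjusted p = 0.000275) and by -0.21 at 48 h (SE 0.09, adjusted p = 0.0384). The 48 h call of Ndufa6 was lost without 0 h replicate 1, 0 h replicate 2, 48 h replicate 1 or 48 h replicate 2, with adjusted p from 0.0522 to 0.139. In the tissue Ndufv3 scored 854 and Ndufa6 scored 1520, both above all 0 h libraries. The opposite courses of Ndufa6 and its partner Ndufab1 are given side by side, and the difference between them was not tested.

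Complex II oxidises succinate and has only 4 subunits, whose courses differed. Sdhd, a membrane anchor, scored 3009, 2791 and 2103 before culture, 2547 and 3079 after 12 h, 3693, 3470 and 3358 after 24 h, 4330, 4292 and 4036 after 36 h, and 4419, 3857 and 3857 after 48 h. It lay above 0 h in all libraries from 24 h on, and the change at 48 h was 0.63 (SE 0.12, adjusted p = 0.00045). Sdhc, its partner in the anchor, scored 2628, 2664 and 1991 before culture, 1230 and 1586 after 12 h, 1836, 1802 and 1576 after 24 h, 2083, 2016 and 1997 after 36 h, and 2083, 2384 and 2428 after 48 h. Sdhc was below 0 h at 12 h and 24 h, by -0.78 (SE 0.14, adjusted p = 0.000366) and -0.47 (SE 0.12, adjusted p = 0.00461), and its libraries at 36 h and 48 h overlapped with 0 h. Sdha, the flavoprotein that binds succinate, scored 5720, 4822 and 3868 before culture, 3013 and 3702 after 12 h, 3412, 3738 and 3721 after 24 h, and 4383, 5433 and 4313 after 48 h. Its change was -0.51 at 12 h (SE 0.16, adjusted p = 0.0138) and -0.02 at 48 h (SE 0.14, adjusted p = 0.914). Sdhb, the iron-sulphur subunit, scored 3005, 2712 and 2640 before culture and 2954, 3297 and 3425 after 48 h. Its groups overlapped, and its change of 0.21 (SE 0.08, adjusted p = 0.0357) was no longer called without 0 h replicate 2, 0 h replicate 3, 48 h replicate 2 or 48 h replicate 3, with adjusted p from 0.0947 to 0.132.

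Complex III, which passes electrons from ubiquinone to cytochrome c, had 2 of 9 members higher and 3 lower at 12 h (29.9% and 28.3% of all). By 48 h 3 were higher and 0 lower by the limma fit (37.1% and 34% of all), and the counts were the same at an unadjusted p under 0.05. Uqcrq, a small membrane subunit encoded at chr11:53427922-53430827 (GRCm38, minus strand), scored 211, 212 and 213 before culture, 438 and 485 after 12 h, 539, 470 and 505 after 24 h, 399, 380 and 345 after 36 h, and 311, 459 and 478 after 48 h. The cultured libraries were all above the 0 h libraries, by 1.12 at 12 h (SE 0.16, adjusted p = 7.12e-05) and 0.94 at 48 h (SE 0.14, adjusted p = 6.57e-05). Uqcrq was read from a single transcript of 1521 nt, at 139 per kilobase at 0 h beside a complex III median of 2227. Whether this is the main transcript of the gene is unknown, so its course may not be that of the whole gene. Cyc1, the haem-bearing cytochrome c1, scored 1586, 1447 and 1370 before culture, 1873 and 1743 after 12 h, 1813, 1982 and 1943 after 24 h, 2007, 2055 and 1935 after 36 h, and 2007, 2187 and 1964 after 48 h. Its groups were apart at every time, with a change of 0.48 at 48 h (SE 0.08, adjusted p = 8.01e-05). Uqcr11, another small subunit, scored 1383, 1187 and 904 before culture and 1535, 1676 and 1696 after 48 h, a change of 0.52 (SE 0.14, adjusted p = 0.00446). The core proteins Uqcrc1 and Uqcrc2 were called at no time.

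Cycs, the mobile carrier between complexes III and IV and a protein whose release from mitochondria activates caspases, scored 1415, 1446 and 1153 before culture, 2111 and 2546 after 12 h, 2384, 2457 and 2298 after 24 h, 1549, 1700 and 2003 after 36 h, and 1725, 2161 and 2168 after 48 h. All cultured libraries lay above 0 h. The change was largest early, at 0.80 at 12 h (SE 0.14, adjusted p = 0.000353) and 0.84 at 24 h (SE 0.13, adjusted p = 6.82e-05), and was 0.39 at 36 h (SE 0.13, adjusted p = 0.0151) and 0.59 at 48 h (SE 0.13, adjusted p = 0.000986). Between 24 h and 36 h Cycs fell by 0.45 (SE 0.13, adjusted p = 0.0267), and this call was lost without any one of 24 h replicate 2, 24 h replicate 3, 36 h replicate 1 or 36 h replicate 2. The tissue scored 1580, above the 0 h libraries and within the range of the 36 h libraries.

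Complex IV, where oxygen is reduced, had 8 of 14 members higher and 1 lower at 48 h, against 1 higher and 5 lower at 12 h. The share higher at 48 h was 57.1%, beside 37.1% of all transcripts, and the share lower was 7.14%, beside 34%. At 12 h the share lower, 35.7%, was nearer to that of all, 28.3%, and the share higher was 7.14%, beside 29.9%. Cox5a, a nuclear-encoded subunit on the matrix side, scored 1000, 910 and 769 before culture, 1177 and 1348 after 12 h, 1418, 1548 and 1514 after 24 h, 1610, 1543 and 1444 after 36 h, and 1538, 1796 and 1807 after 48 h. No cultured library overlapped with 0 h, and the change was 0.50 at 12 h (SE 0.12, adjusted p = 0.0025) and 0.94 at 48 h (SE 0.10, adjusted p = 3.62e-06). Cox6a1, the isoform of most tissues, scored 1206, 1295 and 1257 before culture, 1423 and 1448 after 12 h, 1713, 1701 and 1614 after 24 h, 2026, 1868 and 1738 after 36 h, and 1828, 2089 and 2014 after 48 h. Its libraries were above 0 h at all times, although the test called it only from 24 h on, and the change at 48 h was 0.66 (SE 0.08, adjusted p = 5.55e-06). Ndufa4, named for complex I and since placed in complex IV, scored 1839, 1835 and 1445 before culture, 1651 and 2031 after 12 h, 2430, 2526 and 2467 after 24 h, 2709, 2556 and 2440 after 36 h, and 2150, 3044 and 3270 after 48 h, a change of 0.71 (SE 0.15, adjusted p = 0.000712). Cox7a2 changed by 0.58 (SE 0.18, adjusted p = 0.0101), a call lost without 0 h replicate 3 (adjusted p = 0.0502). Cox8a, lower at 12 h by -0.44 (SE 0.12, adjusted p = 0.00743), was higher at 48 h by 0.27 (SE 0.11, adjusted p = 0.0405), and leaving out any library of 0 h, or 48 h replicate 2 or 3, ended the 48 h call (adjusted p from 0.0647 to 0.186).

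Cox7a2l, which joins complexes III and IV into supercomplexes and lies at chr17:83501934-83514330 (GRCm38, minus strand), was low at 12 h and 24 h and not later. It scored 3660, 3151 and 2694 before culture, 1189 and 1479 after 12 h, 2202, 2202 and 1829 after 24 h, 3009, 3009 and 2715 after 36 h, and 2942, 3217 and 3545 after 48 h. The libraries of 12 h and 24 h lay below all 0 h libraries, by -1.24 (SE 0.14, adjusted p = 9.12e-06) and -0.60 (SE 0.13, adjusted p = 0.000916), and those of 36 h and 48 h lay within or across their range. The rise from 12 h to 24 h was 0.64 (SE 0.14, adjusted p = 0.0159), and its call was lost without 12 h replicate 1 or 24 h replicate 2. That from 24 h to 36 h was 0.49 (SE 0.13, adjusted p = 0.0182), and its call was lost without 24 h replicate 3, 36 h replicate 1 or 36 h replicate 2. The tissue, at 4366, was above all cell libraries.

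The alternative isoforms Cox4i2 and Cox6b2 had the widest changes of all members at 12 h and at 48 h, from low scores. Cox4i2, known as the lung isoform and as responsive to low oxygen, was measured by a transcript of 5 exons at chr2:152754173-152765037 (GRCm38, plus strand). It scored 85, 116 and 123 before culture, 21 and 17 after 12 h, 31, 23 and 24 after 24 h, 62, 79 and 92 after 36 h, and 42, 49 and 30 after 48 h. It was below 0 h at 12, 24 and 48 h, by -2.44 (SE 0.28, adjusted p = 1.23e-05), -2.01 (SE 0.25, adjusted p = 1.53e-05) and -1.41 (SE 0.25, adjusted p = 0.000269), and overlapped with it at 36 h. The tissue scored 155. Cox4i1, the isoform of most tissues, scored 9189, 8514 and 7499 before culture, 5832 and 8086 after 12 h, and 6796, 8729 and 10081 after 48 h, with overlapping groups and a change after 48 h of 0.01 (95% interval -0.324 to 0.342, adjusted p = 0.96). Cox6b2, known as the testis isoform, was measured by a transcript of 4 exons at chr7:4751792-4752972 (minus strand). It scored 42, 41 and 30 before culture, 7 and 5 after 12 h, 29, 23 and 27 after 24 h, 188, 158 and 45 after 36 h, and 243, 142 and 143 after 48 h. It was lower at 12 h by -2.47 (SE 0.49, adjusted p = 0.000878) and higher at 48 h by 2.16 (SE 0.44, adjusted p = 0.000676), with 36 h replicate 3 far from the other 2 libraries of its time. Its partner Cox6b1 scored 3250, 3043 and 2191 before culture and 3788, 4238 and 4238 after 48 h, a change of 0.55 (SE 0.14, adjusted p = 0.00317). Scores of Cox4i2 at 12 h and of Cox6b2 at 12 h lay under the filter level of 21.4, at the low end of the scale. The skeletal muscle markers summed to 3577, 3880 and 647 in the same order of the 36 h libraries, so that replicate 3 was the low library for both. At 24 h the muscle markers summed to 2722, 1934 and 543, where Cox6b2 scored 29, 23 and 27. In the tissue they summed to 5681, above all other libraries, while Cox6b2 scored 27, below all 0 h libraries. The part of muscle cells in the isoform values was not tested.

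**Figure D3:**
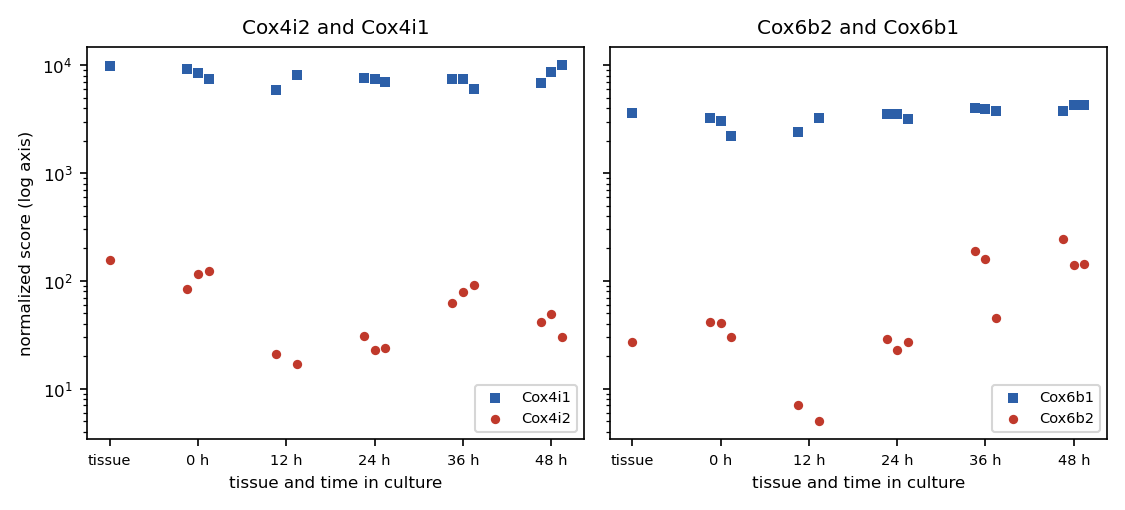
Scores on a log axis in each library for Cox4i2 with Cox4i1 (left) and for Cox6b2 with Cox6b1 (right), in the tissue and at each time in culture. Cox4i2 fell to 17 to 31 at 12 h and 24 h, and Cox6b2 went from 5 and 7 at 12 h to 142 to 243 at 48 h, while Cox4i1 stayed between 5832 and 10081.

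In complex V 2 of 16 members had a change above 0 at 12 h, and 7 of 16 at 48 h. At 12 h 0 members were higher and 3 lower by the limma fit (29.9% and 28.3% of all), with 0 and 5 at an unadjusted p under 0.05, and at 48 h 4 were higher and 2 lower (37.1% and 34% of all). The subunits of the catalytic F1 head moved apart from each other. Atp5b, the catalytic beta subunit, scored 50602, 36491 and 36491 before culture, 40739 and 50602 after 12 h, 50602, 50602 and 70809 after 24 h, 70809, 50602 and 50602 after 36 h, and 70809 in all 3 libraries of 48 h. The 48 h libraries were above 0 h, by 0.80 (SE 0.19, adjusted p = 0.00207), and over all libraries Atp5b took only 4 distinct values. Atp5a1, the alpha subunit that alternates with beta in the head, scored 31711, 24971 and 23151 before culture, 17307 in both libraries of 12 h, 18462, 19210 and 18462 after 24 h, 18462 in all 3 of 36 h, and 16448, 20807 and 19210 after 48 h. All cultured libraries were below 0 h, by -0.61 at 12 h (SE 0.13, adjusted p = 0.0017) and -0.49 at 48 h (SE 0.12, adjusted p = 0.00235). Atp5e, the epsilon subunit of the central stalk, scored 2358, 2569 and 2651 before culture, 1127 and 1405 after 12 h, 1562, 1775 and 1845 after 24 h, 1549, 1577 and 1079 after 36 h, and 1419, 1796 and 2232 after 48 h. It was below 0 h in every cultured library, at 0.499 of the 0 h level at 12 h (adjusted p = 0.000645) and by a log2 change of -0.50 at 48 h (SE 0.17, adjusted p = 0.0192), and the 48 h call was lost without 0 h replicate 3 (adjusted p = 0.0544) or 48 h replicate 1 (adjusted p = 0.095). Atp5d, the delta subunit of the central stalk, went the other way, from 1336, 1210 and 1459 at 0 h to 1823, 2001 and 1889 at 48 h, a change of 0.52 (SE 0.09, adjusted p = 0.000159).

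Of the 4 peripheral stalk subunits 1, Atp5f1, was higher after 48 h and 0 were lower, where 37.1% and 34% of all transcripts were called higher and lower. Atp5l, a small subunit of the membrane part, scored 2025, 2094 and 1723 before culture and 2438, 2885 and 3056 after 48 h, a change of 0.52 (SE 0.12, adjusted p = 0.00234). The genes Atp5g1, Atp5g2 and Atp5g3 encode the same c subunit of the proton-turned ring, and none of them was called at any time. At 48 h their changes were 0.09 (SE 0.13, adjusted p = 0.537), -0.18 (SE 0.19, adjusted p = 0.424) and 0.00 (SE 0.09, adjusted p = 1). Atp5g1 scored 2414, 2338 and 2092 before culture and 1854, 2790 and 2761 after 48 h, with the lone low value in 48 h replicate 1, and without that library its change was 0.29 (adjusted p = 0.00493). Atp5g2 showed the same library apart, at 1891 beside 3533 and 3286.

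Of the 8 complex I assembly factors 3 were higher and 0 lower at 12 h, where 29.9% and 28.3% of all transcripts were called higher and lower. At 48 h 5 were higher and 0 lower by the limma fit (37.1% and 34% of all), and the counts at both times were the same at an unadjusted p under 0.05. Ndufaf4 scored 369, 289 and 289 before culture, 614 and 712 after 12 h, 651, 755 and 762 after 24 h, 493, 505 and 559 after 36 h, and 565, 650 and 713 after 48 h. All cultured libraries were above 0 h, by 1.07 at 12 h (SE 0.14, adjusted p = 3.11e-05) and 1.03 at 48 h (SE 0.13, adjusted p = 9.13e-06), while the tissue, at 217, was below it. Ndufaf8 scored 95, 104 and 84 before culture, 116 and 164 after 12 h, 190, 247 and 232 after 24 h, 175, 223 and 188 after 36 h, and 219, 206 and 221 after 48 h, again with no overlap, and changed by 1.19 after 48 h (SE 0.16, adjusted p = 2.58e-05). Ndufaf2 changed by 0.50 (SE 0.19, adjusted p = 0.0281), a call lost without 0 h replicate 3 (adjusted p = 0.127) or 48 h replicate 3 (adjusted p = 0.0954). Ndufaf3, named after its values were seen, scored 82, 79 and 82 before culture, 57 and 36 after 12 h, 40, 34 and 65 after 24 h, 24, 17 and 15 after 36 h, and 29, 83 and 73 after 48 h. Its libraries of 12, 24 and 36 h lay below all 0 h libraries, with changes of -0.82 (adjusted p = 0.115), -0.85 (adjusted p = 0.0652) and -2.09 (SE 0.38, adjusted p = 0.000298), of which the test called the last.

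**Figure D4:**
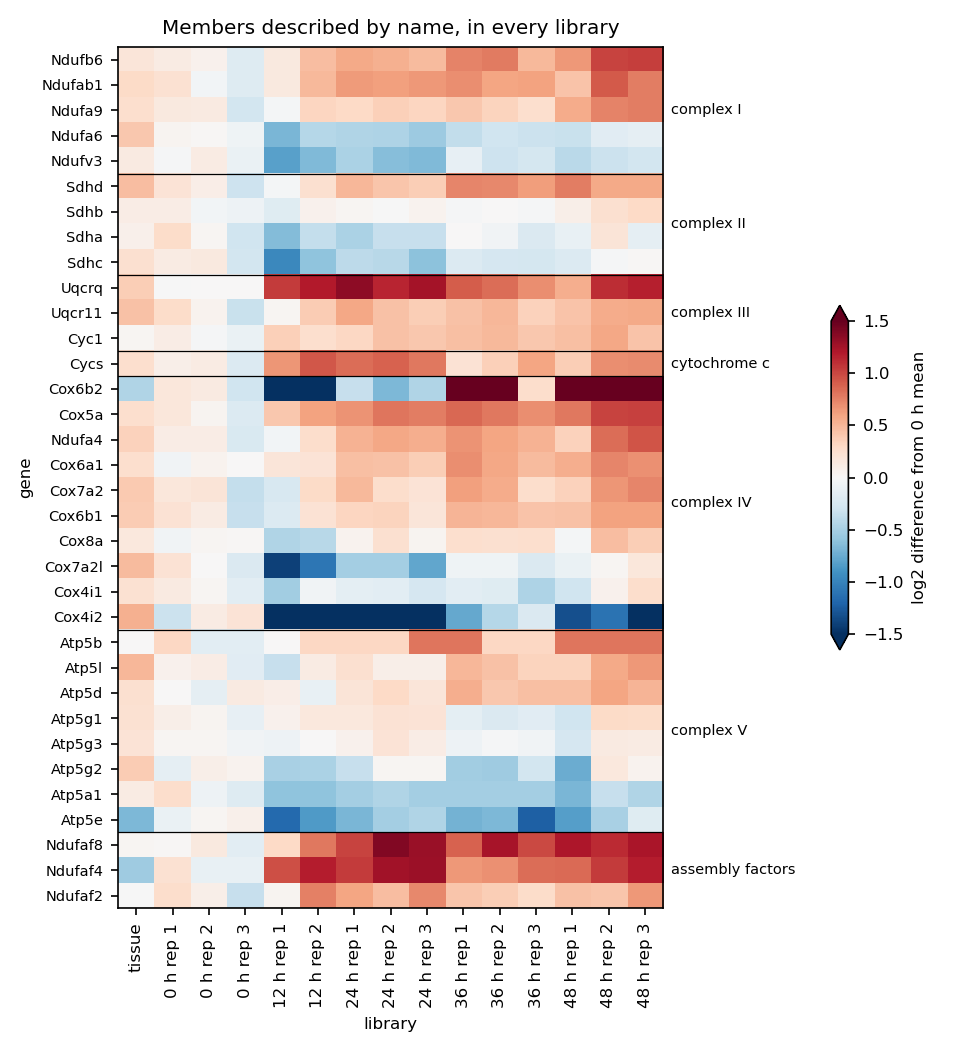
Log2 difference from the 0 h mean in every library (columns) for the members described by name (rows, by complex), red above and blue below, with colours ending at 1.5 in either direction. Uqcrq, Cycs, Cox5a, Ndufaf4 and Ndufaf8 are red in all cultured libraries, and Atp5a1, Atp5e, Ndufa6 and Ndufv3 are blue in all of them.

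Neighbouring times within the culture were also compared, and the counts of members called depended on the fit and on single libraries. Members named here for these steps were picked after their values were seen. From 12 h to 24 h 5 members were higher and 0 lower (4.59% and 3.67% of all tested were called), with 16 higher and 0 lower at an unadjusted p under 0.05 (12.8% and 12% of all). These were Cox6b2 (1.97), Ndufaf8 (0.68), Cox7a2l (0.64), Cox8a (0.55) and Ndufa7 (0.43). With only the libraries of these times in the fit, 0 members were higher. None was called without 12 h replicate 1 or without 24 h replicate 2, and 2 were called without 24 h replicate 3. From 24 h to 36 h 5 were higher and 4 lower (10% and 9.64% of all), the higher ones including Cox6b2 (2.03), Cox4i2 (1.54), Cox7a2l (0.49) and Ndufv3 (0.36). The lower ones were Ndufaf3 (-1.24), Ndufaf4 (-0.47), Ndufb9 (-0.46) and Cycs (-0.45). With only the libraries of these times in the fit, 11 members were higher and 16 lower. The count of lower members was 0 without 24 h replicate 2 or 3 or 36 h replicate 1 or 2, and the count of higher members was 3 without 24 h replicate 3 and 2 without 36 h replicate 1. From 36 h to 48 h 0 were called in either direction by the limma fit (0% and 0.0248% of all), with 12 higher and 1 lower at an unadjusted p under 0.05 (6.4% and 6.99% of all). Without 48 h replicate 1, 6 members were higher at 48 h than at 36 h.

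Freshly isolated mDMCs were compared with the intact tissue they were taken from. The single tissue library lay above all 3 libraries of 0 h for 59 of 88 members (67%), against 29.7% of all transcripts tested, and below them for 5 (5.68% against 32%). The median difference from the 0 h mean was 0.20 over the members, beside -0.01 over all transcripts tested and 0.05 over those of at most 821 nt. The member medians of the 0 h libraries themselves ran from -0.18 in replicate 3 to 0.12 in replicate 1. In complex IV the tissue median was 0.27, and 12 of 14 members lay above 0 h. The members below were Ndufaf1, Ndufaf4, Ndufaf6, Cox6b2 and Atp5e. The tissue was more than 1.5-fold above the 0 h mean for 0 members (7.15% of all) and more than 1.5-fold below it for 1 member (6% of all). Cox7a2l was at 4366 in the tissue beside 2694 to 3660 at 0 h, and Ndufa6 at 1520 beside 1099 to 1187. There is no replicate of the tissue, so these differences have no test. The marker sums of the tissue were 120775 for red cells, within the 0 h range, and 9070 for endothelium, 5681 for skeletal muscle and 1254 for macrophages, above all 0 h libraries. The sum for dental mesenchyme was 19383, below all 0 h libraries, and that for epithelium, 4902, lay within them. The part of these cell types in the member levels was not tested.

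Levels of different members were compared only as score per kilobase of transcript. At 0 h Atp5b was the highest, at 21500 ± 4252 per kilobase (SD, n = 3), followed by Cox4i1 and Atp5a1 (10769 ± 1825). The medians per kilobase were 4496 in complex V, 3178 in complex IV, 2227 in complex III, 1898 in complex II, 1487 in complex I and 160 among the assembly factors. Because the scores were fitted to a shared distribution, these levels give an order and not amounts of RNA. Each member was read from a single transcript, which may not be the main one of its gene.

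Other genes of the pathway were read from lists of assembly factors, regulators of mitochondrial biogenesis, pyruvate and citric acid cycle enzymes, and carriers. Among assembly factors other than the members, 11 of 40 were higher and 2 lower after 12 h, 19 and 1 after 24 h, 23 and 3 after 36 h, and 28 and 2 after 48 h. These were 27.5% and 5% after 12 h (29.9% and 28.3% of all transcripts), 47.5% and 2.5% after 24 h (35% and 31.8%), 57.5% and 7.5% after 36 h (36% and 34%), and 70% and 5% after 48 h (37.1% and 34%). Their median change after 48 h was 0.50, beside 0.03 over all transcripts. Sco2, which delivers copper to complex IV and is known as a p53 target, scored 5, 3 and 2 before culture, 58 and 64 after 12 h, 88, 115 and 131 after 24 h, 181, 137 and 176 after 36 h, and 249, 141 and 242 after 48 h, and 3 in the tissue. The fitted change at 48 h was 5.62 (SE 0.29), from 0 h scores so low that its size depends on the pseudocount. All 0 h scores of Sco2 lay under the filter level of 21.4, and it passed the filter only through cultured libraries where it was high. Its test is therefore not given. Cox17, a copper chaperone of complex IV, scored 212, 164 and 131 before culture and 683, 607 and 548 after 48 h, a change of 1.87 (SE 0.18, adjusted p = 8.29e-07). Coa4 (1.53), Cox10 (1.43) and Coa6 (1.11), also assembly factors of complex IV, rose as well. Atpif1, an inhibitor of ATP synthase, was lower, by -0.48 (SE 0.16, adjusted p = 0.0151).

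Of the 15 regulators with a value 3 were higher and 4 lower at 48 h (20% and 26.7%, below the 37.1% and 34% of all), with a median of -0.02. The higher ones were Esrra (2.27) and Ppargc1b (1.82), a nuclear receptor and its coactivator, and Tfb2m (1.15), a mitochondrial transcription factor. Esrra scored 416, 354 and 198 before culture, 473 and 706 after 12 h, and 1576, 1399 and 1492 after 48 h, with the groups apart at both times. Nrf1 scored 1757, 1681 and 1586 before culture, 1102 and 1281 after 12 h, 1525, 1475 and 1691 after 24 h, 2399, 2235 and 2321 after 36 h, and 2373, 1640 and 1586 after 48 h. It was lower at 12 h, by -0.49 (SE 0.15, adjusted p = 0.0112), and higher at 36 h, by 0.47 (SE 0.13, adjusted p = 0.0061). At 48 h its libraries spanned the range of 0 h to 36 h, with a change of 0.13 (SE 0.13, adjusted p = 0.379). Tfam, which packages mitochondrial DNA, was lower at 48 h by -0.28 (SE 0.11, adjusted p = 0.0291), and Ppargc1a changed by 0.63 (SE 0.39, adjusted p = 0.165).

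Among the 16 genes of pyruvate dehydrogenase and the citric acid cycle 10 were higher and 2 lower at 48 h (62.5% and 12.5%, beside 37.1% and 34% of all), with a median of 0.27. Idh3a, a subunit of isocitrate dehydrogenase, scored 1162, 1201 and 1067 before culture, 2557 and 2679 after 12 h, and 2527, 2763 and 2740 after 48 h, a change of 1.23 (SE 0.08, adjusted p = 4.75e-08). Dlat (1.12) and Pdha1 (0.78), subunits of pyruvate dehydrogenase, also rose, and Suclg2, of the GTP-linked succinyl-CoA ligase, was lower by -0.96 (SE 0.13, adjusted p = 2.76e-05). Of the 12 carriers and electron entry genes 5 were higher and 1 lower (41.7%, near the 37.1% of all, and 8.33%, beside 34%), with a median of 0.20. Gpd2, which feeds electrons from glycerol 3-phosphate to ubiquinone, changed by 1.19 (SE 0.13, adjusted p = 3.92e-06), and Ucp2, an uncoupling protein, by -0.96 (SE 0.25, adjusted p = 0.00402).

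The upstream letters were set beside the calls. Of the 19 members with NRF1 letters in the window, such as the 4 shown above, 8 were higher, 1 was lower (Ndufa6) and 10 were not called at 48 h, with a median change of 0.21. Of the 38 members with a window and without these letters, 15 were higher, 2 lower and 21 not called, with a median of 0.18. Of all transcripts tested, 37.1% were called higher and 34% lower at 48 h. In both sets the share called higher was near that of all, and the share called lower was below it. The difference between these 2 sets was not tested.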

How the data were processed

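RNA-seq was read for 14 libraries of mDMCs and 1 of dental mesenchymal tissue. The authors trimmed and aligned the reads to the mm10 transcriptome with bowtie, estimated expression with RSEM (version 1.1.21 in the submitters' processing notes), and deposited a whole-number score per Ensembl transcript. All libraries share the same distribution of scores, with totals from 21357605 to 21365980, a scaling step that is not given in the sources used here, so that depth and counting error are unknown. The name under which the scores were deposited includes cpm, which these totals exceed. Weakly expressed transcripts had been left out, and transcripts estimated to share reads with a near-identical copy, as the Atp5g genes may, are uncertain.

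Transcripts were matched to genes with GENCODE vM21 (GRCm38), 11973 of 12089, and promoters with RefSeq (GRCm38.p6). Scores were analysed as log2(score + 1) in R 4.3.3 with limma 3.58.1. A mean was fitted for each time over the 14 mDMC libraries, with a variance trend. Two-sided p-values were adjusted by Benjamini-Hochberg over the transcripts that reached 1 ppm of the total in 2 or more libraries. The tissue was left out of the fit. The fit was tested on simulated data for 48 h against 0 h, where it called 86 of 198 transcripts changed by 1.5-fold and 7 others. There noise was independent between transcripts and only 198 of 12024 were changed. In the real data the members moved together between libraries, and 37.1% and 34% of all transcripts were called higher and lower at 48 h. The simulated numbers therefore do not give the error rate of the calls on the members. Other steps used Python 3.11.15, numpy 2.4.6, pandas 2.3.3 and matplotlib 3.10.9. The study's DESeq2 test was not run because the scores are not counts.

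The members and gene lists were chosen with earlier results of these data known, and the grouping of subunits by role and the sequence motifs were added after the members' values were seen. Members are described by name where they had up to 3 of the largest called rises or falls at 48 h in their complex, or are Sdh genes, Cyc1, Cycs or have alternative isoforms. Of each pathway list up to 5 genes with the largest called changes at 48 h are named. The genes Nrf1, Tfam, Ppargc1a and Atpif1 are named in addition, outside this rule. The result of 1 further member is not reported here. Replicate numbers were not used as pairs in the fit: over all times, deviations of libraries with the same number correlated from -0.25 to 0.32, and all pairs were over 0.1 for 24 h with 36 h and 24 h with 48 h. Alternatives were pseudocounts of 10 and 0.1, no filter, a filter in all 14 libraries, trimmed-mean scaling, a fit of the 2 compared times, no variance trend, a replicate block, the rule of unadjusted p under 0.05 with a fold above 2, and each library left out.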

Additional observations from a re-analysis of the deposited data

How the results depend on the processing

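The counts of members kept within 1.5 times under pseudocounts of 10 and 0.1, no filter, trimmed-mean scaling, no variance trend and the replicate block, and the medians moved by less than the replicate SD of the member median (0.14) under every alternative. With the replicate number as a block, 36 members were higher and 5 lower after 48 h, and 8 higher and 23 lower after 12 h. The block changed no count by over 1.5 times. Every same-numbered pair of 24 h with 36 h (r from 0.127 to 0.165) and of 24 h with 48 h (0.201 to 0.318) deviated together, and at 36 h against 24 h the block gave 5 higher and 4 lower, as without it; no other combination of times had every pair over 0.1. With only the 2 times compared, 4 members were higher at 12 h, 0 at 24 h against 12 h, and at 36 h against 24 h 11 were higher and 16 lower. A filter in all 14 libraries gave 3 higher at 36 h against 24 h. With an unadjusted p under 0.05 and a fold above 2, 2 members were higher and 4 lower after 12 h, 3 and 1 after 24 h, 2 and 1 after 36 h, 3 and 1 after 48 h, 1 higher at 24 h against 12 h, 2 higher and 1 lower at 36 h against 24 h, and 1 higher at 48 h against 36 h. Without both 0 h replicate 3 and 48 h replicate 1, added after seeing the data, 28 members were lower after 12 h, 17 after 24 h, 27 after 36 h and 5 after 48 h, with 39 higher at 48 h and 7 higher at 48 h against 36 h. With libraries left out, the higher counts ranged from 5 to 12 after 12 h, 15 to 30 after 36 h, 25 to 47 after 48 h, 0 to 6 at 24 h against 12 h, 2 to 5 at 36 h against 24 h and 0 to 7 at 48 h against 36 h. The lower counts ranged from 14 to 28 after 12 h, 10 to 17 after 24 h, 5 to 27 after 36 h, 3 to 6 after 48 h and 0 to 4 at 36 h against 24 h. Changes at 48 h that turned sign were all of members not called: with libraries left out Atp5g1 ranged from -0.00926 to 0.29, Atp5g2 from -0.35 to 0.13, Atp5g3 from -0.065 to 0.13, Cox4i1 from -0.12 to 0.16, Cox7a2l from -0.0744 to 0.15, Sdha from -0.17 to 0.12 and Sdhc from -0.206 to 0.00354. A pseudocount of 10 gave Atp5g3 1.59e-05, and trimmed-mean scaling gave Cox4i1 -0.00517. The cause was not tested. The unknown depth sets no bound on low members such as Cox6b2, and ties on the scale limit Atp5b and Atp5a1.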
